A study of Mus musculus with 4 samples.

Results

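Of 15476 filtered CD45+ cells from mouse dura mater and brain, 176 carried the messages of the primary granule, the first granule made during neutrophil development. The cells were chosen by their values of 4 genes: a cell was counted when at least 3 of the 4 genes Mpo, Elane, Prtn3 and Ctsg had a deposited value of 1 or more on the natural log scale, which is 1.72 UMIs or more per 10000 (a UMI marks 1 captured RNA molecule). The cell also had to have more than 1000 detected genes, at most 7% mitochondrial UMIs, C1qa below 1.5 on the same scale, and no UMI of the T cell gene Cd3e or the B cell gene Cd79a. The values of these 4 genes are therefore given as a description. These cells are called primary-granule-gene cells here, because the other genes described below did not all fit the single label of granulocyte precursors: 73 of the 176 cells also carried several genes of the monocyte branch.

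The mice were C57BL/6J aged 8 weeks, male by the study's methods, with no transgene named in the labels. Photothrombotic injury (PTI) damages the vessels of the dura mater, pia mater and brain with the dye Rose Bengal and light, and cells were collected 3 days after PTI (D3) or, for the libraries labelled CT, taken here as the study's sham operation (S3). CD45 marks blood-derived and resident immune cells, and the brain libraries carry the label "CD45-+" where the dura mater libraries carry "CD45+". Each of the 4 combinations of tissue and condition was 1 library, and the number of mice in a library was not given in the sources used here. With 1 library per group there was no test of any difference, condition and library cannot be told apart, and every interval below is a 95% interval for counting error only.

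Mpo encodes myeloperoxidase, which makes hypochlorous acid, and Elane, Prtn3 and Ctsg encode the serine proteases neutrophil elastase, proteinase 3 and cathepsin G. The 4 genes are switched on in granulocyte-monocyte progenitors and promyelocytes in bone marrow and are shut down before the secondary granule genes, such as Ltf, Camp and Ngp, reach their peak. They are not specific to the neutrophil line: progenitors of monocytes carry them too, at the stage when Irf8, the factor that directs cells to the monocyte line, comes on. Skull bone marrow lies against the dura mater, and short channels connect both.

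In the mouse, Prtn3 (chr10:79874476-79883174) and Elane (chr10:79886247-79888215) lie on the plus strand 3072 bases apart in the GENCODE annotation of GRCm38, the assembly also called mm10. Mpo (chr11:87793581-87804413) is on the plus strand and Ctsg (chr14:56099881-56102574) on the minus strand. The sequence before the start of the 3 protease genes is shown as a description, and that of Mpo was not searched. The rule asked for at least 3 of the 4 markers, so their joint presence in these cells was set by it. PU.1 (Spi1), a factor of all myeloid cells that reads a GGAA core, was present in nearly all of the cells. Its part in the levels of these genes was not tested. Each stretch runs 5′ to 3′ on the gene's own strand, from 250 to 66 bases before the RefSeq start (GRCm38.p6), at chr10:79879417-79879601 for Prtn3, chr10:79886062-79886246 for Elane and chr14:56102640-56102824 for Ctsg. No GENCODE exon of the gene overlapped its window, and the Prtn3 window lay inside the extent of a longer GENCODE transcript. Capitals mark AGGAAG on either strand.
Prtn3 promoter: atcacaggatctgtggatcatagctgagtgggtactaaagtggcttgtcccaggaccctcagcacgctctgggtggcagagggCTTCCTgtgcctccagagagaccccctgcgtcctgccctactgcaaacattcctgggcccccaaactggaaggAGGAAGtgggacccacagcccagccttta
Elane promoter: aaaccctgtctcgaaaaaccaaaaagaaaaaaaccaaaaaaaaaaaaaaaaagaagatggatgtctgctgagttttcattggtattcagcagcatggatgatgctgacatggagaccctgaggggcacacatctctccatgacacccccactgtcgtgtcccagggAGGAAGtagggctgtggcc
Ctsg promoter: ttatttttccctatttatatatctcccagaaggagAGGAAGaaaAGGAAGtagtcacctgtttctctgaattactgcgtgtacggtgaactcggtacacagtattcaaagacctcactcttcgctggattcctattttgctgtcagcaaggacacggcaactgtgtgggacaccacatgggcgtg
AGGAAG was found in all 3 windows, with the first letter 94 bases before the start in Prtn3, 84 in Elane and 215 and 206 in Ctsg, and once on the other strand of Prtn3, 167 to 162 bases before the start. The same letters occurred in 22.2% of 32851 windows of this length and position across all RefSeq genes. The letters TTNNGNAA, a core of the C/EBP factors, were not in these 3 windows and were in 30.7% of all windows. Bases nearer to the start than 66 were not searched, so a C/EBP core there would have been missed. Levels are given as CPM, the UMIs of a gene per 1000000 UMIs summed over the cells, and 4 values in a row stand for brain S3, dura mater S3, brain D3 and dura mater D3. Spi1 was at 379, 326, 446 and 435 CPM, with a UMI in 97.5% to 100% of the primary-granule-gene cells.

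Primary-granule-gene cells were several times more frequent among dura mater CD45+ cells than among brain CD45+ cells. They numbered 81 of 3669 filtered cells in dura mater S3 (2.21%, Clopper-Pearson interval 1.76 to 2.74) and 52 of 2862 in dura mater D3 (1.82%, 1.36 to 2.38). In the brain they numbered 11 of 3842 at S3 (0.286%, 0.143 to 0.512) and 32 of 5103 at D3 (0.627%, 0.429 to 0.884). Both dura mater intervals lay above both brain intervals. Between S3 and D3 the share in the brain had a ratio of 2.19 (exact interval 1.08 to 4.82) and that in the dura mater 0.823 (0.569 to 1.18), so the dura mater values were within counting error of each other. Against the neutrophils and monocytes of the same library, the tissues stood closer at D3: the cells made up 7.34% of these myeloid cells and themselves in dura mater S3, 7% in dura mater D3, 1.55% in brain S3 and 4.05% in brain D3.

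**Figure D1:**
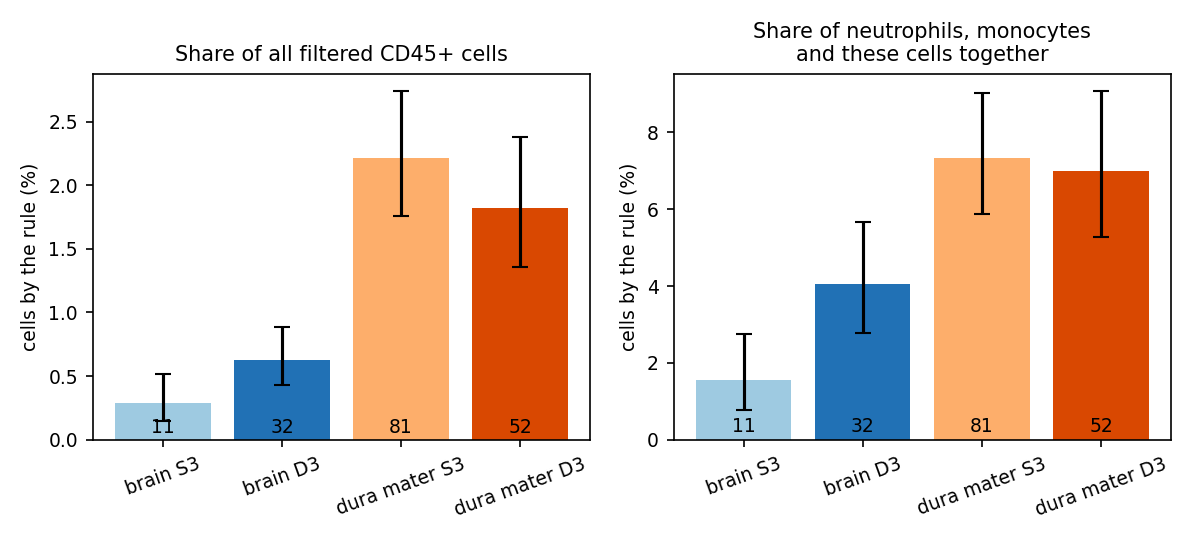
Bars show primary-granule-gene cells as a percentage of all filtered CD45+ cells (left) and of neutrophils, monocytes and these cells together (right) in the 4 libraries, with 95% Clopper-Pearson intervals as error bars and the number of cells inside each bar. The dura mater bars, at 2.21% and 1.82% on the left, stand above the brain bars at 0.286% and 0.627%.

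The cells were far larger in RNA content than the libraries they came from. Their median depths were 48500.0, 38285, 44254 and 45138 UMIs, against 8585, 9996, 16118 and 15192 over all filtered cells. Of the 176 cells, 65 (36.9%) had 6000 detected genes or more and would be discarded by the upper limit in the study's methods. None of the 176 was among the barcodes with the top doublet scores, although their median scores, 0.0307 to 0.0695, were above those of all filtered cells, 0.0099 to 0.0252, and the caller's own threshold marked under 0.5% of cells in each library. Between 3 and 11 barcodes were shared by a pair of libraries, and none of them was a primary-granule-gene cell. In dura mater S3, 13 cells had fewer than 10000 UMIs, and 2 in dura mater D3 did.

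At the edge of the rule, 109 filtered cells had 2 of the markers, 73 had 3 and 136 had 4. Of the 90 cells with 2 markers that passed the exclusions, 83 had Prtn3, 48 Elane, 31 Ctsg and 18 Mpo. The exclusions removed 33 cells with 3 or more markers, among them 22 with Cd79a, of which 19 had a single Cd79a UMI and 20 came from dura mater S3. With 1 UMI of Cd3e or Cd79a allowed, an alternative chosen after seeing the data, the dura mater S3 share was 2.67% and the others were 0.286%, 0.647% and 1.89%.

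Mpo was at 4442, 3413, 4325 and 2398 CPM, and its median per cell was 7.72, 19, 25.6 and 16.4 per 10000 with a highest cell at 135. Elane was at 3747, 4662, 7071 and 4162 CPM, with medians of 13.6, 9.38, 42.3 and 17.9 per 10000 and a highest cell at 306. By summed CPM Mpo was lowest in dura mater D3, but by the median cell it was lowest in brain S3, where 1 cell held 52.1% of the Mpo UMIs. Elane was highest in brain D3 by both, and the cells of all libraries overlapped in both. Prtn3 was at 4638, 5342, 8461 and 6158 CPM and was the only marker that every cell had at or above the threshold, with medians of 23.9, 30.4, 61.5 and 47.1 per 10000. Ctsg was at 2807, 2336, 3533 and 1913 CPM. In T and B cells, which should lack them, each marker was at 0.734 to 8.87 CPM in each library, with a UMI in 0.627% to 5.37% of cells at median depths of 5802 to 6650.0 UMIs. Across the cells of a library, the rank correlation of Elane with Prtn3 was 0.85 to 0.90 and that of Elane with Ctsg ran from 0.38 in dura mater D3 and 0.45 in dura mater S3 to 0.73 in brain D3 and 0.88 in brain S3. These correlations are over 11 to 81 cells that share a library, the rule and the total they are divided by.

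**Figure D2:**
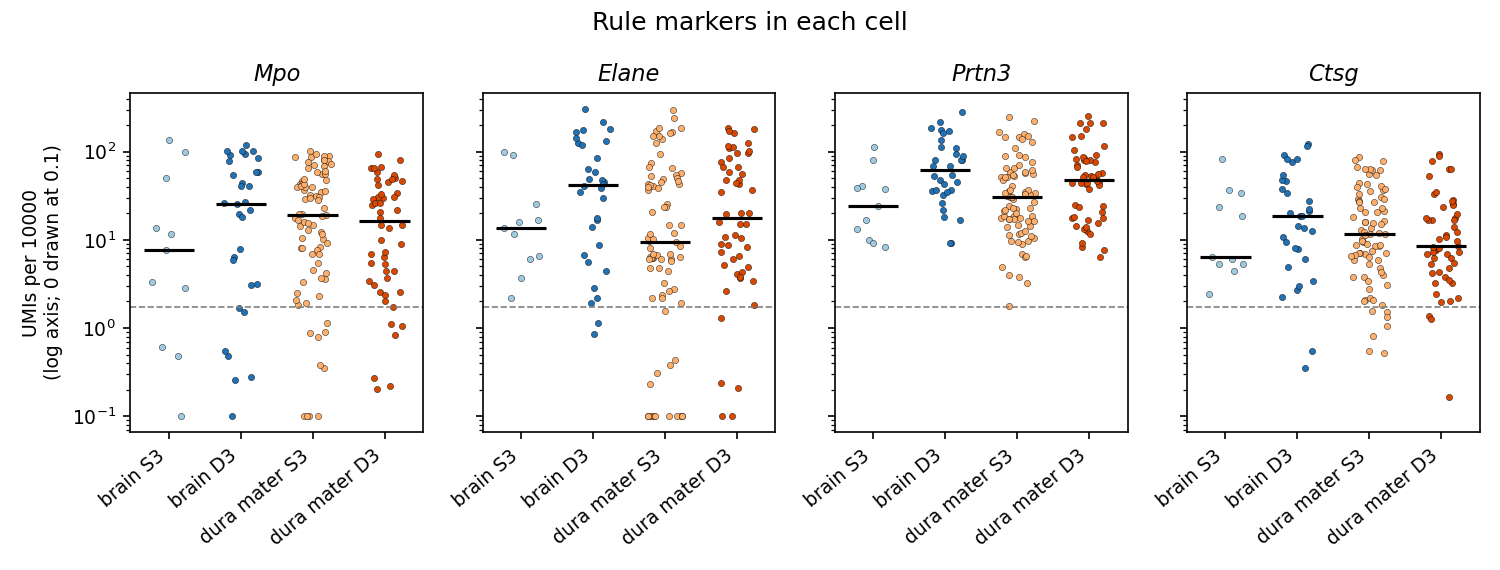
Each point is 1 cell and shows UMIs per 10000 of a rule marker on a log axis, with zeros drawn at 0.1, the black line at the median and the dashed line at the rule's threshold of 1 on the natural log scale. Prtn3 has no point below the dashed line, whereas Mpo, Elane and Ctsg each have cells below it.

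Cells grouped by the marker they lacked also differed in other genes. The groups were made on the same 4 values that chose the cells, so their levels are a description. All 4 markers passed in 114 cells, Mpo was the missing one in 27, Elane in 23 and Ctsg in 12, and no cell lacked Prtn3. The 27 cells without Mpo had the highest level of F13a1, the coagulation factor XIII A chain of monocytes, at 1146 CPM against 427 in cells with all 4 markers, and of Ccr2, the receptor that brings monocytes out of the marrow, at 614 against 178. The 23 cells without Elane had the highest Cd34, a surface protein of stem and progenitor cells, at 306 against 73.8 CPM, and Flt3, a cytokine receptor of early progenitors, at 88 against 6.69. The 12 cells without Ctsg had the secondary granule genes Camp and Ngp at 56104 and 19950.1 CPM, against 4137 and 1241 in cells with all 4 markers. Irf8 was at 13.9 CPM in the cells without Ctsg and between 350 and 605 in the other 3 patterns.

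Cebpe, the factor of the promyelocyte to myelocyte step, followed the secondary granule genes, with 619 CPM in cells without Ctsg, 159 with all 4 markers, 26.7 without Mpo and 1.22 without Elane. Gfi1, a repressor that favours the neutrophil line, was at 34 CPM in cells with all 4 markers and had no UMI in the 27 cells without Mpo (upper limit 3.65 CPM). Ms4a3, a gene of granulocyte-monocyte progenitors and their offspring, was at 863 and 698 CPM with all 4 markers and without Ctsg, but at 30.6 and 42.8 without Mpo and without Elane. Kit, the stem cell factor receptor, was at 52.6 CPM without Elane, 24.1 with all 4 and 0 without Mpo (upper limit 3.65). Cells without Elane also held Cpa3, a mast cell and basophil progenitor protease, at 323 CPM in 8 of the 23 cells. The patterns were summed over libraries, and 16 of the 23 cells without Elane came from dura mater S3, 5 of them under 10000 UMIs.

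**Figure D3:**
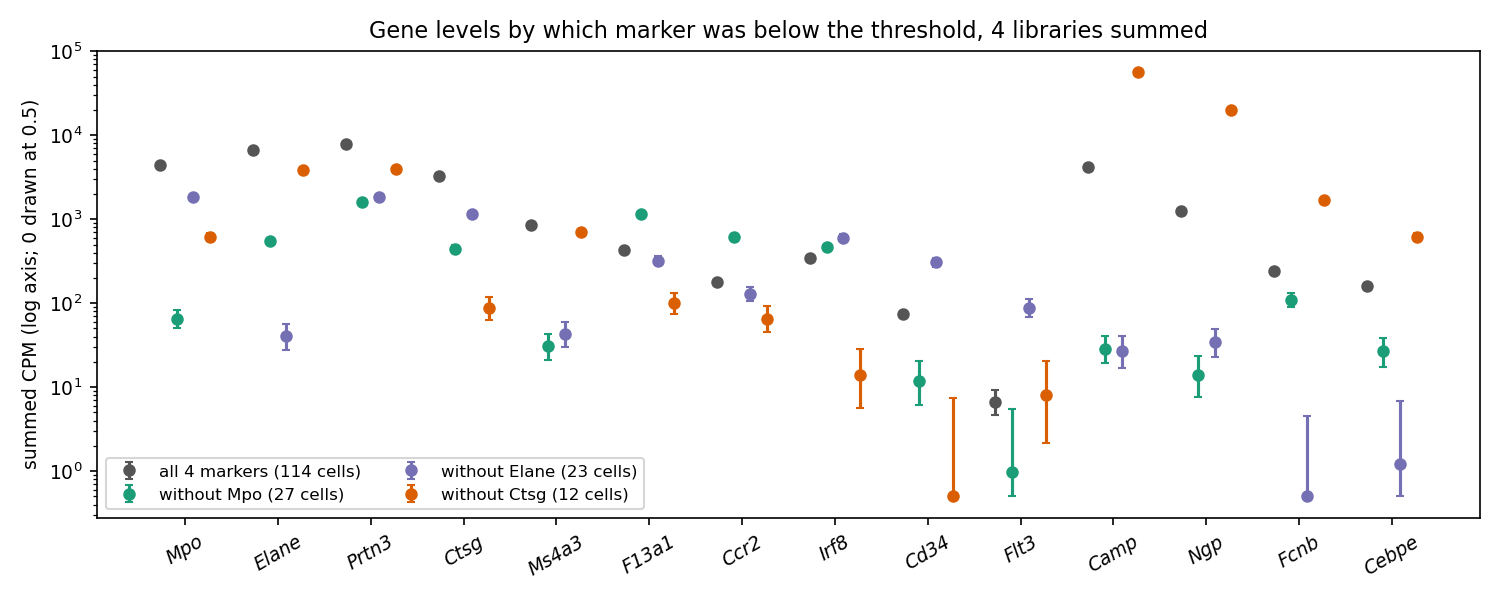
Points show summed CPM on a log axis with 95% Poisson intervals for the 4 markers and 10 other genes, by which marker was below the threshold, with the 4 libraries summed. Cells without Mpo lead in F13a1 (1146 CPM) and Ccr2 (614), cells without Elane in Cd34 (306) and Flt3 (88), and cells without Ctsg in Camp (56104) and Ngp (19950.1).

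To place each cell on the branches at equal depth, every cell was thinned to 2000 UMIs and the genes detected from 10 monocyte branch genes and 10 neutrophil branch genes were counted. The cut points were set after seeing the values, and the groups are ranges of a count, not cell types. At least 4 monocyte branch genes were found in 73 cells: 9 of 11 in brain S3 (81.8%, 48.2 to 97.7), 32 of 81 in dura mater S3 (39.5%, 28.8 to 51), 12 of 32 in brain D3 (37.5%, 21.1 to 56.3) and 20 of 52 in dura mater D3 (38.5%, 25.3 to 53). Near this cut, 38 cells had 3 or 4 monocyte branch genes, so the range had no gap. At least 5 neutrophil branch genes were found in 0, 8, 4 and 11 cells in the same order, 23 in all (0 of 11 in brain S3 allows a share of up to 28.5%), with 5 cells at 4 or 5 genes. The remaining 80 cells had few genes of either branch, and 1 dura mater S3 cell passed both cuts and was counted with the monocyte-gene cells. Of the 27 cells without Mpo, 26 were in the monocyte-gene range, and of the 12 without Ctsg, 10 were in the secondary-granule range.

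**Figure D4:**
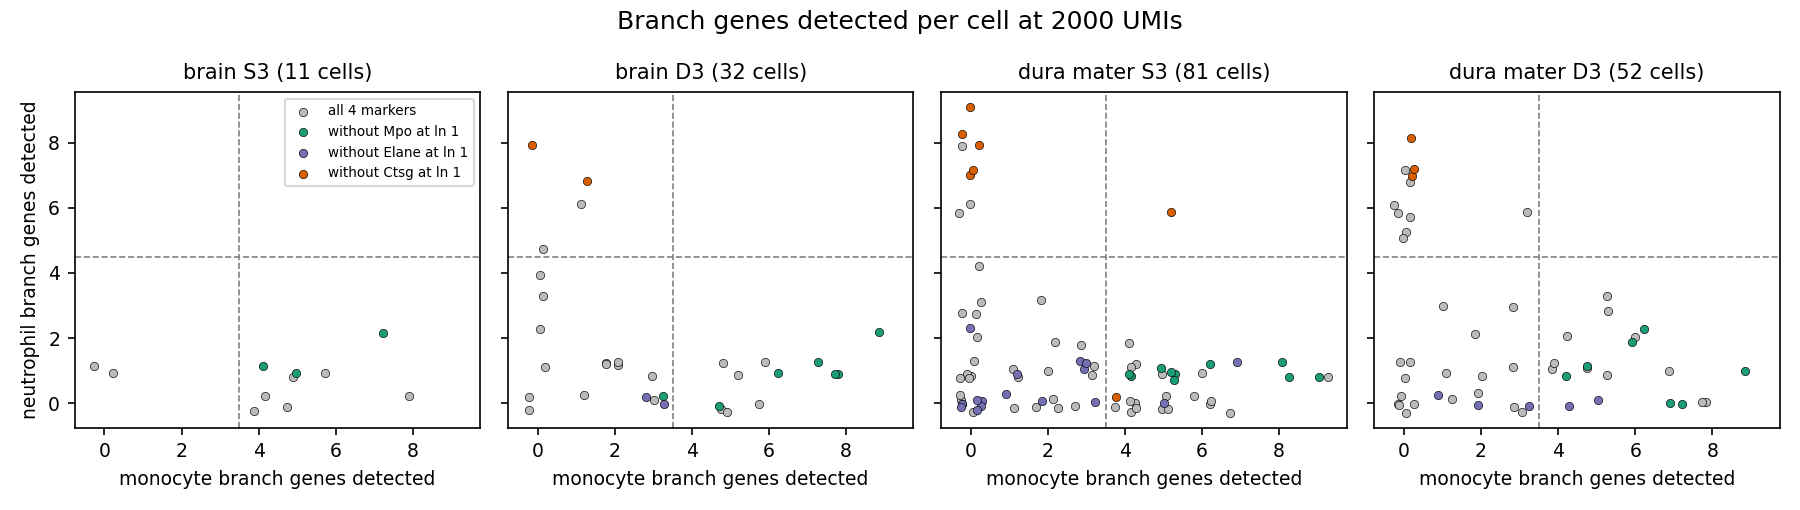
Each point is 1 cell after thinning to 2000 UMIs, with the number of detected monocyte branch genes on the horizontal axis and of neutrophil branch genes on the vertical axis (points are spread slightly around whole numbers), coloured by missing marker; dashed lines are the cuts at 4 and 5 genes. Cells lie along both axes, 73 to the right of the vertical line and 23 of the others above the horizontal line, with 1 cell past both.

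The ranges were cut on counts of branch genes, so the levels of such genes within them are a description. In the monocyte-gene range, Irf8, a gene of the counted list, was at 517 to 689 CPM in the 4 libraries. Ms4a6c, a monocyte surface gene, was at 859 to 1108 CPM there. In the secondary-granule range, Camp was at 62356, 40004 and 48148 CPM in the last 3 libraries, and S100a8, a calcium-binding protein of neutrophil cytosol, at 95559, 91281 and 105816. These few cells carried most of the Camp of the whole group, which was at 10.5, 7491, 4373 and 8403 CPM, and no brain S3 cell fell in the range. In the secondary-granule range Elane, at 6119, 7286 and 7913 CPM, was close to its level in the remaining cells, at 6527, 9787 and 5637, whereas Ctsg was at 335, 688 and 577 CPM against 3532, 5296 and 3509.

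The remaining 80 cells carried Mpo at its highest level of the 3 ranges, with Myb and Gfi1 above their levels in the monocyte-gene range. Mpo was at 11959.9, 5432, 6445 and 4213 CPM in the remaining cells, against 1253, 1194, 1329 and 835 in the monocyte-gene range. Myb, a factor that keeps progenitors dividing, was at 335, 252, 215 and 285 CPM against 47.4, 49.3, 53.3 and 35.1. Gfi1 had 94.1, 42.2, 65.5 and 29 CPM in the remaining cells and 0, 0.851, 0 and 0 in the monocyte-gene range. The brain S3 values of the remaining cells rest on 2 cells.

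Genes of macrophages were scarce in the group, and those of eosinophils, basophils and mast cells came mostly from few cells. The 10 erythroid genes summed to 3.5, 31.1, 8.62 and 9.99 CPM, against 28, 352, 10.9 and 530 over all filtered cells, so the brain D3 value was close to that of its library. Among them Car1, Alas2 and Rhag had no UMI in the group, and 1, 4, 3 and 5 of the 10 genes had one. The 10 microglia and macrophage genes summed to 275 to 595 CPM, against 10327 to 40196 over all filtered cells, with C1qa used by the rule. The 10 B cell precursor genes, with Cd79a held at 0 by the rule, summed to 24.5, 37.6, 26.5 and 24.1 CPM, against 624, 1479.7, 53 and 301. One dura mater D3 cell held 99.9% of the group's Prg2, the eosinophil major basic protein, at 531 per 10000. One dura mater S3 cell held 265 per 10000 of Mcpt8, a basophil protease, and 2 dura mater D3 cells held at least 5 per 10000. The 10 eosinophil, basophil and mast cell genes summed to 105, 466, 68.3 and 1128 CPM, against 304, 944, 97.8 and 968 over all filtered cells.

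Among the regulators and receptors of myeloid growth, the early factor Cebpa was at 133, 118, 99.5 and 77.8 CPM and Cebpe at 63.1, 142, 192 and 169. Irf8 was at 517, 355, 441 and 312 CPM, with a UMI in all 11 brain S3 cells and in 65.4% to 71.9% of the others. Csf3r, the receptor of the granulocyte growth factor G-CSF, was at 42.1, 39.6, 51.1 and 54.5 CPM, and Csf1r, that of the macrophage growth factor, at 87.6, 60, 78.3 and 78.6. Cxcr4, the receptor that holds precursors in marrow, was at 212, 122, 101 and 119 CPM. Brain S3, where 9 of the 11 cells lay in the monocyte-gene range, had the highest Irf8 and Cxcr4 and the lowest Cebpe of the 4 libraries. Irf8 is among the genes counted for that range, so its level beside the range is a description. After thinning, at least 2 of the 10 early progenitor genes were found in 18.2%, 18.5%, 9.38% and 21.2% of the cells, with overlapping intervals.

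The cells were compared with neutrophils that carried secondary granule genes (at least 3 of Ltf, Camp, Ngp and Lcn2 at 2 or more on the natural log scale and fewer than 3 rule markers) and with Ly6C high monocytes (at least 3 of Ly6c2, Ccr2, Csf1r and F13a1 at 1 or more), in the summed dura mater libraries. Against the 689 secondary-granule neutrophils, 41.2% of 7942 genes with 100 UMIs or more were at least 2-fold higher in the 133 dura mater primary-granule-gene cells and 12.5% at least 2-fold lower, and the median log2 ratio of all genes was 0.70. All 12 ribosome biogenesis genes were at least 2-fold higher, with a median log2 ratio of 3.87. The 12 endoplasmic reticulum folding genes, which serve the making of secreted and granule proteins, were all higher too (median 2.11). In contrast, 11 of 12 secondary granule genes (median -3.27) and 11 of 12 tertiary granule and mature neutrophil genes (median -3.83) were at least 2-fold lower. The secondary granule genes Ltf, Camp, Ngp and Lcn2 defined the compared neutrophils, so their values are a description, and both compared classes had fewer than 3 rule markers by definition.

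The 20 genes with the largest ratios over secondary-granule neutrophils held the 4 rule markers and several enzymes of biosynthesis. Phgdh, the first enzyme of serine synthesis from a glycolytic intermediate, had 200 CPM against 2.83 (log2 6.15, 5.65 to 6.68). Srm, spermidine synthase, had 122 CPM against 1.75 (log2 6.13, 5.50 to 6.83). The list also held C1qbp, a mitochondrial matrix protein, Apex1, a DNA repair endonuclease, and Myc, a growth regulator. Cd34 had 97.7 against 1.91 CPM (log2 5.67, 5.07 to 6.34), with a UMI in 45.1% against 1.31% of cells. Cst7, cystatin F, an inhibitor of granule protease processing, was at 123 against 1.08 CPM (log2 6.83, 6.05 to 7.75). Prg2, Mcpt8 and Prss34 were also among the 20, but 1 cell held 99.9%, 85.1% and 87% of their UMIs.

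Against the 589 Ly6C high monocytes, 11.0% of 8508 genes were at least 2-fold higher and 16.1% at least 2-fold lower, with a median log2 ratio of -0.06 over all genes. All 6 MHC class II genes, which present antigen, were at least 2-fold lower (median -5.03), as were 11 of 12 interferon-stimulated genes (median -3.56). Of the 10 monocyte branch genes 8 were lower (median -1.81), and Irf8 was the gene of the list with the highest ratio, a log2 value of 0.60; F13a1, Ccr2 and Csf1r were used to define these monocytes. Ms4a3 had 553 CPM against 2.26 (log2 7.93, 7.37 to 8.56). Nkg7, a granule membrane protein, was at 354 against 4.98 CPM (log2 6.15, 5.77 to 6.57), and Prss57, another serine protease of the primary granule, at 131 against 1.45 (log2 6.49, 5.78 to 7.31). Prtn3 itself was not confined to the cells of the rule: in the monocytes it was at 65.5, 82.7, 167 and 271 CPM, with a UMI in 23.7%, 30.5%, 54.4% and 66.5% of cells. The D3 to S3 log2 ratio of Prtn3 in these monocytes was 1.35 (1.14 to 1.56) in the brain and 1.71 (1.56 to 1.87) in the dura mater. For Mpo in the same monocytes the intervals included 0, at 1.31 (-0.32 to 3.35) and -0.36 (-1.09 to 0.37). Elane had 0.43 (-0.05 to 0.92) and 0.84 (0.52 to 1.16), the latter with a UMI in 15.9% of cells at S3 and 16% at D3. Ctsg had -1.25 (-1.73 to -0.78) and -0.40 (-0.76 to -0.04). In the secondary-granule neutrophils, Prtn3 had 4.23 (3.38 to 5.25) in the brain, from 11 UMIs at S3. It had 0.13 (-0.05 to 0.30) in the dura mater. Elane in these neutrophils had 4.94 (3.56 to 6.83) in the brain and -0.85 (-1.09 to -0.61) in the dura mater. At D3 a single cell in each tissue held 42.9% and 55.8% of these Elane UMIs.

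Most of the cells carried genes of the cell cycle, above both compared classes also at equal depth. Mki67, a protein of cycling nuclei, had a UMI in 100%, 79%, 93.8% and 92.3% of the primary-granule-gene cells. After thinning to 2000 UMIs it was detected in 63.6% (30.8 to 89.1), 42% (31.1 to 53.5), 43.8% (26.4 to 62.3) and 51.9% (37.6 to 66). In the secondary-granule neutrophils the thinned shares were 4.79%, 15.6%, 16.4% and 12.6%, and in the Ly6C high monocytes 7.89%, 14.3%, 6.59% and 13.2%. The S-phase genes, which copy DNA, summed to 2970.2, 3780.3, 3505 and 3636 CPM in the primary-granule-gene cells against 351 to 995 CPM in the secondary-granule neutrophils and 765 to 1224 in the monocytes. Against the secondary-granule neutrophils of the dura mater, 37 of 38 S-phase genes and 21 of 51 G2/M genes were at least 2-fold higher. The share over all genes was 41.2%, so the G2/M count was at the share of all genes. Against the Ly6C high monocytes of the dura mater, 35 of 38 S-phase genes and 18 of 52 G2/M genes were at least 2-fold higher. The share over all genes in that comparison was 11.0%. No phase was called for single cells.

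Between dura mater D3 and S3, few genes differed in size by 2-fold. Of 5667 genes that had 100 UMIs or more over both groups, 27 (0.476%) were at least 2-fold higher at D3 and 21 (0.371%) at least 2-fold lower, and the median log2 ratio of all genes was -0.00. None of the 4 rule markers was past 2-fold, with log2 ratios of -0.51 for Mpo, -0.16 for Elane, 0.21 for Prtn3 and -0.29 for Ctsg. The same held for all counted genes of the lists for other primary granule cargo (10 counted, median 0.05), transcription factors (11, median -0.16), receptors (10, median 0.23), monocyte branch (10, median 0.32), ribosome biogenesis (12, median 0.04), endoplasmic reticulum folding (12, median 0.33) and the S phase (38, median -0.03). Of 11 counted secondary granule genes 1 was at least 2-fold higher, and of 9 tertiary granule and mature neutrophil genes 2 were (median 0.50), against the 0.476% of all genes. Of 6 early progenitor genes 1 was at least 2-fold lower, Adgrg1, an adhesion receptor of stem cells, at 12.3, 54.8, 13.9 and 26.6 CPM. None of the 8 counted emergency granulopoiesis genes was past 2-fold (median 0.41), and the nearest was Wfdc21 at 3.5, 414, 442 and 797 CPM, a log2 ratio of 0.95 (0.84 to 1.05). The endoplasmic reticulum chaperone Hspa5 was at 916, 533, 851 and 740 CPM.

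The secondary granule gene past 2-fold was Lcn2, lipocalin 2, which binds bacterial iron carriers. It was at 28, 412, 620 and 873 CPM, with a log2 ratio of 1.08 between the dura mater libraries and 31.3% of its D3 UMIs in 1 cell. By range, Lcn2 had a log2 ratio of 0.28 (0.17 to 0.40) in the 11 and 8 secondary-granule cells, 0.17 (-0.10 to 0.44) in the monocyte-gene cells and 2.29 (1.90 to 2.69) in the remaining cells. The ranges were cut on counts of branch genes, so this split is a description. The 2 mature neutrophil genes were Mmp8, with 54.9% of its D3 UMIs in 1 cell, and Retnlg, with 93.7%; in cells with fewer than 6000 genes Retnlg had a log2 ratio of -2.21. S100a8 was at 131, 13083, 12399 and 21022 CPM, a log2 ratio of 0.68 between the dura mater libraries.

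Ifitm1, an interferon-inducible membrane protein also made by progenitors, was among the higher genes. It was at 8.76, 35.7, 192 and 215 CPM, so both D3 libraries were above both S3 libraries. A UMI was found in 9.09%, 33.3%, 46.9% and 44.2% of the cells. The 5 UMIs of brain S3 were in 1 cell, and 1 cell held 22.7%, 41.2% and 23.8% of the UMIs in the others. The log2 ratio in the dura mater was 2.59 (2.29 to 2.90), and it was 3.72 (2.74 to 4.88) in the monocyte-gene cells and 2.81 (2.50 to 3.14) in the remaining cells. Ifitm1 was also higher at D3 in the other classes, at 7.98, 14.9, 314 and 141 CPM in the Ly6C high monocytes and 89.4, 17.5, 197 and 145 in the secondary-granule neutrophils. In dura mater D3, 1 cell held 43.4% of the Ifitm1 UMIs of the monocytes and 1 held 32% of those of the neutrophils. Of the 12 interferon-stimulated genes, which do not include Ifitm1, 3 were counted in the dura mater comparison and none was past 2-fold.

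Ms4a6d, a monocyte and macrophage surface gene, was at 21, 8.75, 43.1 and 57 CPM, a dura mater log2 ratio of 2.70 (2.10 to 3.36). In the monocyte-gene cells alone the ratio was 2.31 (1.64 to 3.03). Ms4a6d was at 98.8 and 316 CPM in the Ly6C high monocytes of dura mater S3 and D3. Gngt2, a G protein subunit, was at 10.5, 8.75, 47.8 and 52 CPM (log2 2.57, 1.96 to 3.23). Hmox1, heme oxygenase 1, was at 42.1, 9.08, 18.6 and 42.9 CPM (log2 2.24, 1.62 to 2.90), with brain S3 close to dura mater D3. Wfdc17, a whey acidic protein family member, was at 8.76, 17.5, 29.9 and 83.2 CPM (log2 2.25, 1.81 to 2.71). The other genes named as higher were Atp11a, Camk2d, Siglece and Olfm1, each between 33.7 and 47 CPM at D3.

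The largest differences in the other direction were in the heat shock genes. Hspa1a, an inducible HSP70 chaperone, was at 1598, 703, 202 and 17.5 CPM, with a dura mater log2 ratio of -5.33 (-5.81 to -4.89). Its pair Hspa1b, whose coding sequence is nearly the same so that reads may be split between both, was at 675, 264, 65.7 and 12.9 CPM. The Ly6C high monocytes of the same libraries had Hspa1a at 2078, 957, 560 and 55.1 CPM and the secondary-granule neutrophils at 305, 94.6, 303 and 9.98, so the dura mater D3 library was lowest in all 3 classes. Tissues were dissociated by enzymes at body temperature before the sort, and the part of that step in these values was not tested. Of the 12 genes of the list for dissociation stress, Hspa1a and Hspa1b were the only 2 past 2-fold, and Fos was at 1411, 1034, 869 and 798 CPM. Mcpt8 and Cxcl10 were also named as lower, with 95.9% and 55.6% of their S3 UMIs in 1 cell. Cxcl2, a chemokine for neutrophils, was at 5.26, 52.2, 57.7 and 12.1 CPM, and Ddit4, Ccrl2, Gm26522, Hcar2 and Hilpda had 25.3 to 37.6 CPM in dura mater S3.

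**Figure D5:**
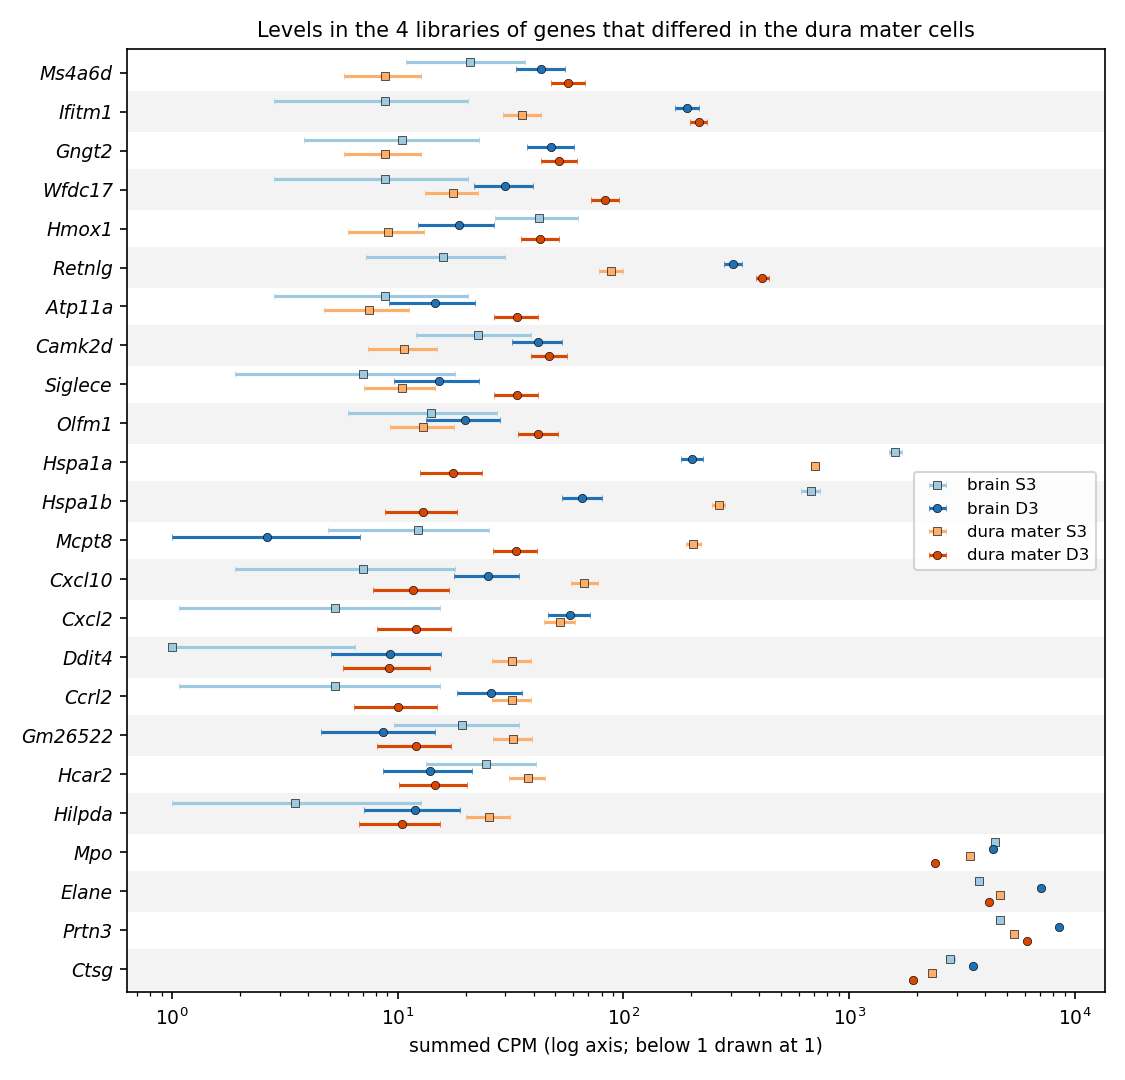
Points show summed CPM on a log axis with 95% Poisson intervals in the primary-granule-gene cells of the 4 libraries (squares S3, circles D3) for the 20 genes named for the dura mater D3 and S3 comparison and, at the bottom, the 4 rule markers. Ifitm1 has both D3 points (192 and 215 CPM) to the right of both S3 points (8.76 and 35.7), and Hspa1a spans 1598 CPM in brain S3 to 17.5 in dura mater D3.

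At D3, the dura mater and brain cells also differed in few genes: of 4551 counted, 36 (0.791%) were at least 2-fold higher in the dura mater and 21 (0.461%) at least 2-fold lower. All 4 rule markers were lower in the dura mater, by less than 2-fold, with log2 ratios of -0.85 for Mpo, -0.76 for Elane, -0.46 for Prtn3 and -0.89 for Ctsg. The cells were chosen on these 4 genes, so their ratios here and within the ranges are a description. Within the monocyte-gene cells the ratios were -0.67 for Mpo, -0.70 for Elane, -0.33 for Prtn3 and -0.44 for Ctsg, and within the remaining cells -0.61, -0.80, -0.33 and -0.59. In the secondary-granule cells, 11 in the dura mater and 4 in the brain, Mpo and Elane were not lower in the dura mater, with Mpo at 2292 CPM against 2173 and Elane at 7913 against 7286, while Prtn3 was at 7738 against 8601 and Ctsg at 577 against 688. The 10 other primary granule genes counted had a median of -0.38, against -0.03 over all genes, with Nkg7 at -0.99, Ms4a3 at -0.91 and Prss57 at -0.79. Gfi1 was at 16.2 CPM in dura mater D3 and 44.4 in brain D3, a log2 ratio of -1.45 (-2.06 to -0.86), and Myc had a ratio of -1.10.

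Cpa3 had 153 UMIs in 17.3% of the dura mater D3 cells and 1 UMI in the 32 brain D3 cells, a log2 ratio of 6.58 (4.08 to 11.90). It was at 107 CPM in dura mater S3 and 7.01 in brain S3, so both dura mater libraries were above both brain libraries. Few cells carried these values: 1 cell held 34.3% of the Cpa3 UMIs in dura mater S3 and 1 held 39.9% in dura mater D3. Cpa3 was at 5 per 10000 or more in 4 of 81 and 3 of 52 cells of these libraries. In brain S3 all 4 UMIs were in 1 cell. The histone gene Hist1h2ap was at 808, 1199, 319 and 965 CPM. It was lowest in brain D3 in the Ly6C high monocytes too, at 339, 311, 49.2 and 282 CPM. Hspa1a, Hspa1b and Cxcl2 were again among the genes lower in dura mater D3, as were C1qb, a complement gene of macrophages, and Spp1, osteopontin. For Cxcl2, 1 cell held 47.1% of the 87 UMIs in brain D3. C1qb was at 15.8, 13.3, 43.1 and 15.8 CPM in these cells and at 51.2, 31.2, 402 and 85.9 in the Ly6C high monocytes, and the part of free RNA in its value was not tested. With 11 cells, brain S3 was below the 20 set for a comparison of genes, so brain S3 values stand beside the others without a ratio.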

How the data were processed

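CD45+ cells were sorted by FACS and run on the 10x Chromium 3′ v3 system. Per the labels and the study's methods, the authors mapped reads to mm10 with Cell Ranger 3.1.0 and normalised UMIs in Seurat 3.1.0. The deposited values are natural log values, ln(1 + UMIs of a gene / UMIs of the cell × 10000), in unfiltered barcodes of 500 UMIs or more and genes found in at least 3 cells. Whole UMIs were recovered from them (largest relative deviation from a whole number 1.38e-14). The 4 libraries held 4734, 4795, 5925 and 3515 barcodes and 49003977, 54749012, 115154317 and 55887697 UMIs (brain S3, dura mater S3, brain D3, dura mater D3).

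The cell filter was more than 1000 genes and up to 7% mitochondrial UMIs, with no upper limit. UMIs were summed per class and library (CPM). A list is described by its counted genes. Called means at least 2-fold with 100 UMIs or more over both groups. Against a group at 0 a ratio uses a floor of 3 UMIs over the group. Intervals are 95% Clopper-Pearson, Poisson or exact conditional. They cover counting error only. Scrublet (scanpy 1.11.5) scored doublets, at 0.8% per 1000 barcodes. No doublet was removed in the values given. Python 3.11.15, numpy 2.4.6 and scipy 1.17.1 were used, and the comparison was tested on simulated data. The members, gene lists and comparisons were chosen with earlier results of these data known. Named genes were those of the lists, at most 10 per direction in each comparison (100 UMIs, 2-fold, an interval off 0, a UMI in 10% of the higher group's cells) and the 20 with the largest ratio over each compared class (200 UMIs or more). Alternatives changed the marker threshold and number, filters, depth, scaling and doublet removal.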

Additional observations from a re-analysis of the deposited data

Results flagged for a closer look

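Between S3 and D3, the share of primary-granule-gene cells had a ratio of 2.19 (1.08 to 4.82) in the brain and 0.823 (0.569 to 1.18) in the dura mater. These values lie on opposite sides of 1, but the dura mater interval includes 1, and with all 4 markers the dura mater shares were 1.31% and 1.29%, so no direction is shown there. With 1 library per group, the difference between the tissues was not tested.

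Among barcodes outside the cell filter, which no comparison used, 4 in dura mater S3 and 5 in dura mater D3 had at least 3 of the markers. All 9 had more than 7% mitochondrial UMIs.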

How the results depend on the processing

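No paired analysis was possible because each group has 1 library. Gene comparisons of brain D3 with S3, and of dura mater with brain at S3, were not run, since brain S3 had 11 cells. The share moved with the rule (brain S3, dura mater S3, brain D3, dura mater D3 as 0.286%, 2.21%, 0.627% and 1.82% in the report). With 2 markers it was 3.33%, 1.04% and 2.52% in the last 3 libraries, with all 4 markers 1.31%, 0.412% and 1.29%. With any UMI counted it was 0.651%, 3.33%, 1.04% and 3.18%. A threshold of 2 gave 1.5% in dura mater S3 and 1.26% in dura mater D3, and under 6000 genes 0.107% in brain S3, 1.54% in dura mater S3 and 1.16% in dura mater D3. In dura mater S3 it was 2.86% without the exclusions and 1.73% without the cell filter. In every alternative the dura mater shares stayed above the brain shares of the same condition.

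For dura mater D3 against S3, the genes at least 2-fold higher (27) and lower (21) became 94 and 124 with 30 UMIs or more, and 3 and 0 in cells thinned to 2000 UMIs. The higher count was 11 with under 6000 genes, and 14 with fewer than 2 secondary granule genes or, chosen after seeing the data, fewer than 4 monocyte branch genes. The lower count was 9 with all 4 markers, 37 as a mean of per-cell shares and 11 with at least 2 secondary granule genes. Retnlg turned from 2.22 to -2.21 with under 6000 genes, where the cell with 93.7% of its D3 UMIs was left out. For dura mater against brain at D3, the counts (36 and 21) became 190 and 74 with 30 UMIs, 6 and 0 after thinning, 21 and 13 with at least 2 secondary granule genes and, chosen after seeing the data, 22 and 9 with at least 4 monocyte branch genes. The higher count was 17 with under 6000 genes, the lower 11 with all 4 markers. Thinning removes UMIs, so fewer genes reach 100; the cause of the other shifts was not tested.

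Mki67 shares are given thinned and unthinned in the report (63.6%, 42%, 43.8% and 51.9% thinned). At its own depth, 100%, 91.4%, 100% and 94.2% of cells had at least 2 secondary granule genes, and 100%, 69.1%, 78.1% and 61.5% at least 4 monocyte branch genes. With all 4 markers, the median log2 ratios over secondary-granule neutrophils were -3.84 for secondary granule, 2.41 for monocyte branch and 0.82 for G2/M genes, and over monocytes 1.28, -1.99 and 0.77, with 0.94 for folding genes. With doublets removed, secondary granule and monocyte branch genes had -3.29 and 3.51 over secondary-granule neutrophils, and monocyte branch genes -1.81 over monocytes.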
